A study of Homo sapiens with 6 samples.

Results

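NRF2 (gene NFE2L2) is the transcription factor that cells use against oxidants and reactive chemicals. In resting cells the adaptor KEAP1 delivers it to a CUL3 ubiquitin ligase and it is degraded, whereas oxidized KEAP1 lets it accumulate, pair with a small MAF protein and bind antioxidant response elements. Its classical targets make and recycle glutathione and thioredoxin and use NADPH to detoxify quinones and carbonyls, and in liver tumor cells this program is often strongly active.

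To determine how these targets behaved in Hep G2 cells with EFTUD2 overexpression, 9 of them were taken by symbol from the deposited expression table: NQO1, HMOX1, GCLM, GCLC, TXNRD1, SRXN1, AKR1B10, AKR1C1 and SLC7A11. All 9 were found among its 23524 genes and all 9 were expressed well enough to be tested. The table holds RNA-Seq of Hep G2, an established human liver tumor line, infected with empty lentivirus (control, 3 libraries) or with lentivirus carrying the EFTUD2 gene (EFTUD2-overexpressing, 3 libraries). Both groups are stably infected cells kept after puromycin selection, without any added oxidant or NRF2 activator named in the labels. The labels do not say whether the replicates were separate cultures, and the study states only in general that its data came from independent experiments, so p-values measure the spread between these libraries, which may be technical.

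Values are FPKM, fragments scaled to transcript length and library size, and they were compared as log2(FPKM + 1), so that a log2 fold change understates the change of a gene with low values. The FPKM of a library summed to between 404342 and 434542, and as no read counts were given the depth is unknown. Where 3 values are given for a group, they are those of replicates 1 to 3 in this order. The overexpressed gene itself was at 41.1, 54.4 and 46.3 FPKM in control cells, against 106.6, 102.9 and 109.5 FPKM with EFTUD2. All 10 hepatocyte markers used to check the cell line were expressed, with albumin at 1773 FPKM or more in each library. EFTUD2 replicate 3 and, to a lesser degree, control replicate 1 stood apart from the other libraries, and both are named beside the values they decide.

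Antioxidant response elements share the core TGACNNNGC, which may lie on either strand and ends in GTCA when it is read from the opposite one. Promoter sequences, from 250 bases before to 50 bases after the annotated start, were available from RefSeq (GRCh38.p14) for 6 of the 9 genes, in 7 promoters. The core was found in 3 of these 7, against 13.3% of all 35116 promoters of this length. The 3 matches lying wholly before a start are shown because they place the core close to the start of GCLM and to both annotated starts of TXNRD1, together with 1 of the 2 matches in the promoter of the inhibitor KEAP1, which has the same core letters as GCLM. Each line gives 30 bases of the gene's own strand, and the capitals mark the core.

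GCLM, chr1:93909445-93909474, minus strand: tacgatttctGCTTAGTCAttgtcttccag

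TXNRD1, upstream start, chr12:104215670-104215699, plus strand: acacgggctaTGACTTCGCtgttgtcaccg

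TXNRD1, downstream start, chr12:104286920-104286949, plus strand: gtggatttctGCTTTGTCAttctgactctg

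KEAP1, chr19:10502783-10502812, minus strand: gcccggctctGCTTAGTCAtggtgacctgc

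The core lay 34 to 26 bases before the GCLM start and 99 to 91 or 102 to 94 bases before the TXNRD1 starts. The upstream TXNRD1 promoter held a further core that spanned the start. The windows of NQO1, GCLC, SRXN1 and AKR1C1 held none, which says only that these letters are not in this window. HMOX1, AKR1B10 and SLC7A11 had no entry. The element bound by ATF4, TGATGNAA, was in 0 of the 7 promoters (3.62% of all promoters), and the AP-1 element TGANTCA was also in 0 of 7 (7.71% of all).

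The targets were well expressed in both groups, and none of them set control and EFTUD2-overexpressing cells apart. None of the 9 genes differed between the groups at an adjusted p under 0.05 in limma's fit over all 17222 genes tested, where the share called was 0% (0 genes). EFTUD2 itself, the overexpressed gene, had a log2 fold change of 1.16 and an adjusted p of 0.13 in this fit. A target that missed the threshold is therefore not shown to be unchanged. At an unadjusted p under 0.05 the count was 0 of 9, against 12.3% of all genes tested. The 2 groups overlapped for each of the 9 genes, while 27.3% of all genes tested had groups that did not overlap. Higher mean log2 values in EFTUD2-overexpressing cells were found for 7 of the 9 (6 of the 9 with quantile normalization or a common sum) and lower values for SRXN1 and GCLC. The median log2 fold change of the 9 was 0.26, against -0.07 over all genes tested, 37.3% of which were higher. After scaling by the median of ratios it was 0.37, against 0.002 over all genes tested, 50.3% of which were higher. The median of the 9 depended on single libraries. Without control replicate 1 only 3 of the 9 were higher and the median was -0.046, and without EFTUD2 replicate 1, 2 or 3 it was 0.081, 0.095 and 0.090. It was 0.42 without control replicate 2 and 0.21 without control replicate 3.

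**Figure D1:**
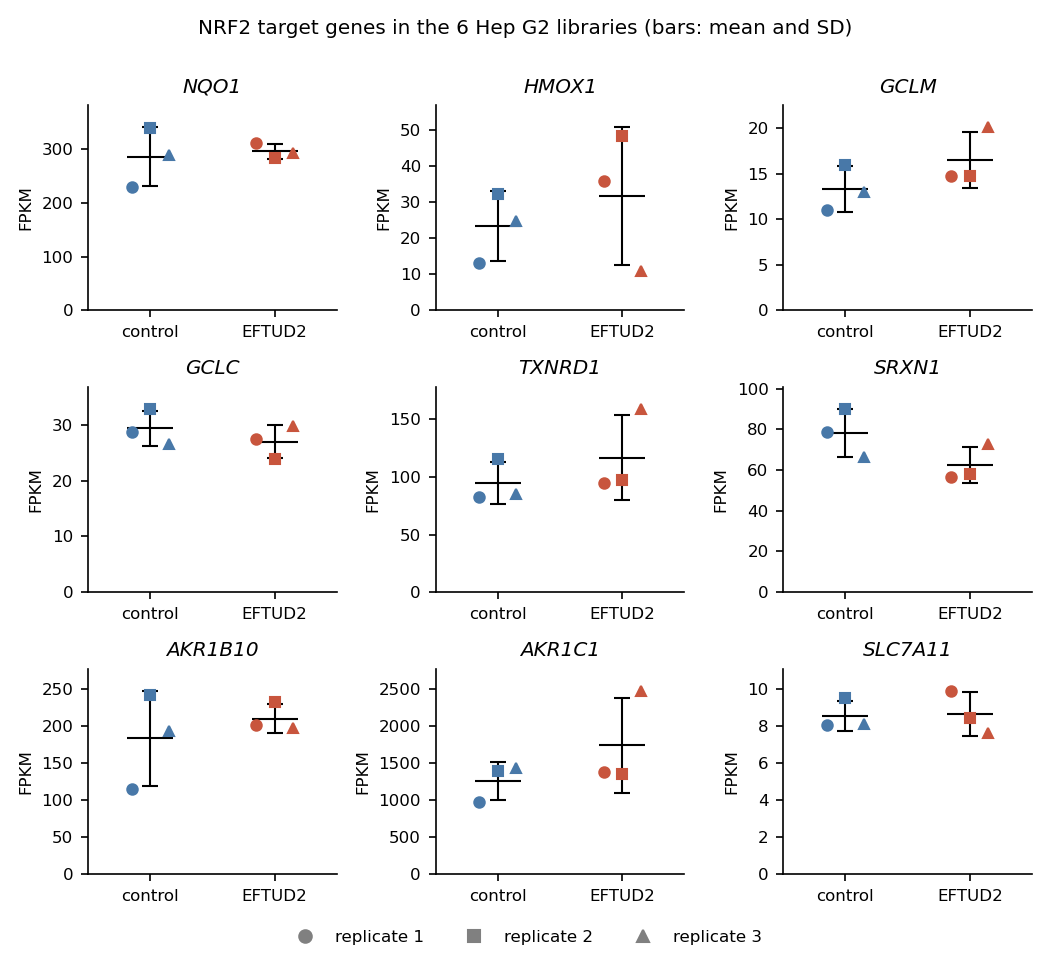
FPKM (vertical axes, linear, from 0) of the 9 NRF2 target genes in the 3 control and the 3 EFTUD2-overexpressing libraries. Symbols mark replicates 1 to 3, and the bars give the mean and SD of each group (n = 3). In every panel the groups overlap; control replicate 1 is the lowest library for NQO1, GCLM, TXNRD1, AKR1B10 and AKR1C1, and EFTUD2 replicate 3 is the highest for GCLM, TXNRD1 and AKR1C1.

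FPKM levels, which are comparable between genes because they are per transcript length, spanned a wide range among the 9. AKR1C1 led with a mean of 1503 FPKM over the 6 libraries, higher than 99.9% of all genes tested, and was followed by NQO1 (290.4 FPKM), AKR1B10 (196 FPKM), TXNRD1 (106 FPKM), SRXN1 (70.3 FPKM), GCLC (28.2 FPKM), HMOX1 (27.5 FPKM), GCLM (14.9 FPKM) and SLC7A11 (8.62 FPKM). The lowest AKR1C1 library was above the highest NQO1 library, the lowest SRXN1 library above the highest GCLC library and the lowest GCLM library above the highest SLC7A11 library. All other neighbours in this order had ranges that overlapped.

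The first role examined was glutathione synthesis. Glutamate-cysteine ligase carries out its rate-limiting step and consists of a catalytic subunit, GCLC (Entrez gene 2729, chr6:53497341-53616970), and a modifier subunit, GCLM (Entrez gene 2730, chr1:93885205-93909456). GCLM was at 11.1, 16.01 and 12.95 FPKM in control cells, against 14.8, 14.7 and 20.1 FPKM with EFTUD2. Only EFTUD2 replicate 3 lay above all controls. Its log2 fold change was 0.29 (95% interval -0.14 to 0.72, standard error 0.18; limma adjusted p = 0.47), which was 0.15 without EFTUD2 replicate 3, 0.17 without control replicate 1 and 0.032 without both.

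GCLC was at 28.6, 32.8 and 26.6 FPKM in control cells, against 27.4, 23.8 and 29.7 FPKM with EFTUD2. Its mean level was slightly lower in EFTUD2-overexpressing cells, by less than the spread of either group (29.4 ± 3.15 against 26.96 ± 2.97 FPKM, SD, n = 3 each; log2 fold change -0.12, adjusted p = 0.65 from limma; -0.0054 after scaling by the median of ratios and -0.036 without EFTUD2 replicate 2).

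With the modifier higher and the catalytic subunit lower, the ratio of GCLM to GCLC, which does not depend on library scaling, separated the groups. It was 0.39, 0.49 and 0.49 in the controls and 0.54, 0.62 and 0.68 in the EFTUD2 replicates (exact permutation test, two-sided p = 0.1, the smallest this design allows). The ratio was picked after the values were seen. Of the 36 ratios between pairs of the 9 genes, 5 had groups that did not overlap, or 13.9%, which is below the 25.9% of all pairs of genes averaging 1 FPKM or more. The other such ratios were those of GCLM, GCLC, TXNRD1 and AKR1C1 to SRXN1.

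SLC7A11 (Entrez gene 23657, chr4:138164097-138242349), the subunit of the cystine-glutamate exchanger that brings in cystine for glutathione, was the lowest of the 9. It was at 8.07, 9.52 and 8.12 FPKM in control cells, against 9.92, 8.46 and 7.61 FPKM with EFTUD2. The highest and the lowest library both belonged to the EFTUD2 group. Its log2 fold change was 0.01, with a 95% interval from -0.32 to 0.34 and an adjusted p of 0.97 from limma. ATF4, the transcription factor that also drives SLC7A11 under amino acid shortage, was at 277.6, 226 and 236 FPKM in control cells, against 234, 232 and 252 FPKM with EFTUD2.

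Of the thioredoxin arm, TXNRD1 encodes the cytosolic reductase that recharges thioredoxin with NADPH. TXNRD1 (Entrez gene 7296, chr12:104215779-104350305) was at 82.8, 115.4 and 85.5 FPKM in control cells, against 94.4, 96.9 and 158.7 FPKM with EFTUD2. The third EFTUD2 library stood alone above the others, at 1.66 times the mean of EFTUD2 replicates 1 and 2. The log2 fold change of 0.27 (95% interval -0.28 to 0.83, adjusted p = 0.57 from limma) came to 0.03 without that library.

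SRXN1 (Entrez gene 140809, chr20:646615-653370), sulfiredoxin, which repairs overoxidized peroxiredoxins, had the lowest log2 fold change of the 9. It was at 78.4, 89.8 and 66.2 FPKM in control cells, against 56.7, 57.9 and 72.8 FPKM with EFTUD2. EFTUD2 replicates 1 and 2 lay below all controls, and replicate 3 lay among them. The log2 fold change was -0.32 (95% interval -0.69 to 0.05, standard error 0.16), and the limma adjusted p of 0.42 was the smallest of the 9. Its direction was the same in each of the 19 fits tried, from -0.43 to -0.19. In the GENCODE transcripts, 84.7% of the windows of 50 bases of the longest SRXN1 transcript are also part of the overlapping gene AL121758.1. Reads there could be assigned to either if the annotation behind the FPKM values holds both genes, which was not checked.

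For the quinone and carbonyl reductases, NQO1 (Entrez gene 1728, chr16:69706996-69726951) reduces quinones in a step that avoids radicals. NQO1 was at 229, 338 and 289 FPKM in control cells, against 310.3, 284 and 292 FPKM with EFTUD2. The EFTUD2 libraries all lay inside the range of the controls. For NQO1 the log2 fold change was 0.07, with a 95% interval from -0.31 to 0.45 (adjusted p = 0.85 from limma), and it was -0.08 without control replicate 1.

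AKR1B10 (Entrez gene 57016, chr7:134527592-134541408), an aldo-keto reductase of retinal and lipid aldehydes that many liver tumors express, was at 115, 242 and 193 FPKM in control cells, against 201, 232 and 197 FPKM with EFTUD2. Apart from control replicate 1, the libraries lay between 193 and 242 FPKM. Its fold change on the log2 scale was 0.26 (standard error 0.26, adjusted p = 0.64 from limma) and turned to -0.046 without control replicate 1.

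AKR1C1 (Entrez gene 1645, chr10:4963253-4983283) reduces steroid ketones and reactive carbonyls. It was at 969.6, 1393 and 1430.3 FPKM in control cells, against 1389, 1352 and 2482 FPKM with EFTUD2. Control replicate 1 was the lowest and EFTUD2 replicate 3 the highest library, and the other 4 were nearly equal. The log2 fold change was 0.42 (95% interval -0.26 to 1.11, adjusted p = 0.50 from limma), which was 0.14 without EFTUD2 replicate 3 and -0.04 without both of these libraries.

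For the paralogs of AKR1C1, EFTUD2 replicate 3 was again the highest library, and control replicate 1 was the lowest for AKR1C2 but not for AKR1C3. AKR1C2 was at 60.0, 141.7 and 118 FPKM in control cells, against 109, 108 and 258 FPKM with EFTUD2, and AKR1C3 was at 151, 160.2 and 169 FPKM and at 158, 141 and 223 FPKM. In 28.3% of the windows of 50 bases of the longest AKR1C1 transcript the sequence also occurs in AKR1C2, and 50.8% of the AKR1C2 windows occur in AKR1C1, so the division of reads between these genes is uncertain.

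HMOX1 (Entrez gene 3162, chr22:35380361-35394214) encodes heme oxygenase 1, which breaks down heme into biliverdin, iron and carbon monoxide and also responds to BACH1, a repressor released by heme. HMOX1 was at 13.0, 32.2 and 24.8 FPKM in control cells, against 35.8, 48.2 and 10.9 FPKM with EFTUD2. EFTUD2 replicates 1 and 2 were the highest of the 6 libraries and replicate 3 was the lowest. HMOX1 had the widest range of the 9, 4.42-fold between the lowest and the highest library, and its log2 fold change of 0.28 had a 95% interval from -1.06 to 1.62 (adjusted p = 0.81 from limma).

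The direction of HMOX1 depended on single libraries: its log2 fold change was -0.071 without control replicate 1, -0.13 without EFTUD2 replicate 2 and 0.081 without EFTUD2 replicate 1. Without EFTUD2 replicate 3 it was 0.90, with a 95% interval from 0.01 to 1.78 and an adjusted p of 0.30 from limma. In that fit the groups of HMOX1 and SRXN1 did not overlap, 2 of the 9 genes, against 39.9% of all genes tested. These 2 also had an unadjusted p under 0.05 (0.048 and 0.019), as did 16.7% of all genes. An adjusted p under 0.05 was reached by 0 of the 9, while 0.761% of all genes did so. With array weights (estimation not converged), by which limma lets libraries that depart from their group count less, 7.23% of all genes were called and again 0 of the 9.

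**Figure D2:**
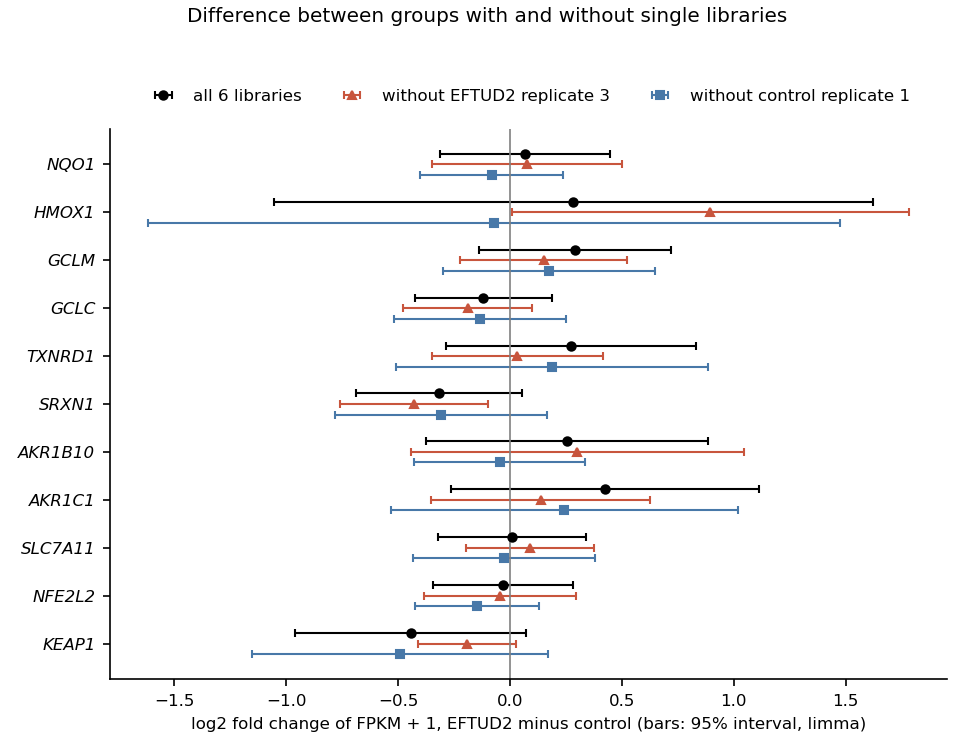
Log2 fold change of FPKM + 1, EFTUD2-overexpressing minus control (horizontal axis), with 95% intervals from limma, for the 9 target genes, NFE2L2 and KEAP1. Circles show all 6 libraries, triangles the fit without EFTUD2 replicate 3 and squares the fit without control replicate 1. With all 6 libraries each interval includes 0; without EFTUD2 replicate 3 those of HMOX1 (0.01 to 1.78) and SRXN1 (-0.76 to -0.10) do not.

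Single libraries departed widely from the others of their group. Control replicate 1 was the lowest of the 6 libraries for 5 of the 9 targets and for 41 of 72 other genes around the pathway (56.9%), while it was the lowest for 12.1% of all genes tested. On the log2 scale it lay below the mean of the other 2 controls by 1.06 for HMOX1, 0.91 for AKR1B10, 0.54 for AKR1C1 and 0.45 for NQO1, but was level with them for SRXN1 (0.02) and GCLC (-0.04). Over all genes tested this difference had a median of 0.02 and an SD of 0.31.

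EFTUD2 replicate 3 departed from the other 2 EFTUD2 libraries in both directions. On the log2 scale it was higher by 0.86 for AKR1C1, 0.72 for TXNRD1, 0.42 for GCLM, 0.34 for SRXN1 and 0.21 for GCLC, was level for NQO1 (-0.02), and was lower for AKR1B10 (-0.13), SLC7A11 (-0.24) and HMOX1 (-1.84). Over all genes tested its difference had a median of -0.14 and an SD of 0.54. Only 0.633% of all genes had a lower difference than HMOX1, and 96.6% had a lower one than AKR1C1. EFTUD2 mRNA in this library was 1.05 times the mean of the other 2. The cause of these differences was not tested.

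**Figure D3:**
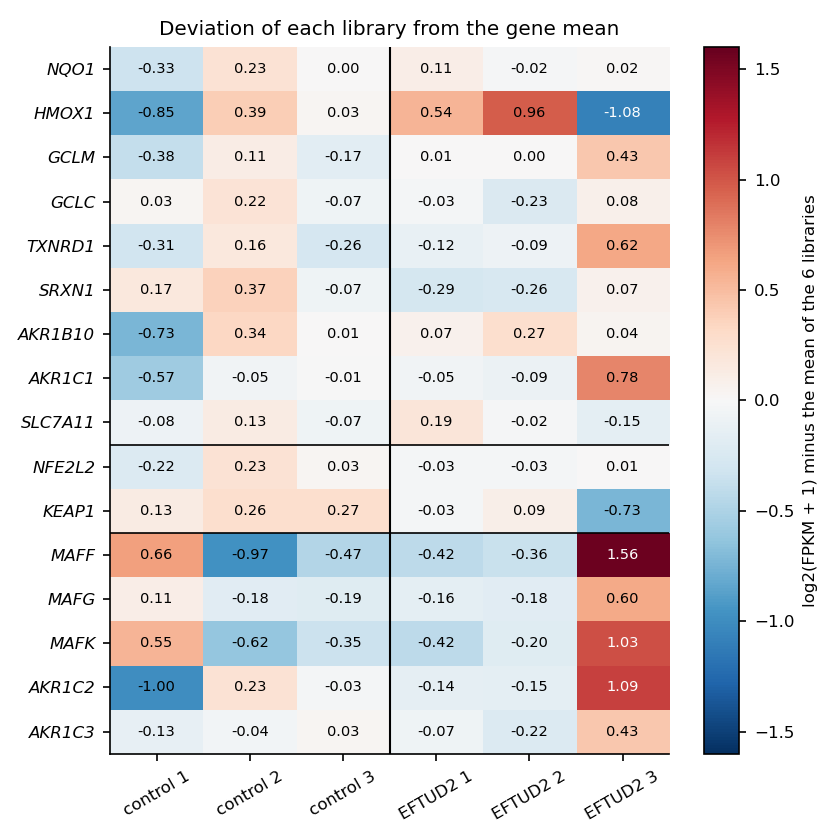
Log2(FPKM + 1) of each library minus the mean of the 6 libraries (color and printed value), for the 9 target genes (upper block), NFE2L2 and KEAP1 (middle block) and the small MAF genes and AKR1C paralogs (lower block). Columns are control and EFTUD2 replicates 1 to 3. The strongest colors lie in control replicate 1 and EFTUD2 replicate 3, and MAFF and MAFK are high in both of these libraries.

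The regulators of the pathway were examined next. NFE2L2 (Entrez gene 4780), whose protein is controlled mainly by its stability, was at 62.6, 85.9 and 74.6 FPKM in control cells, against 71.6, 71.2 and 73.5 FPKM with EFTUD2. The EFTUD2 libraries all lay within the control range, with a log2 fold change of -0.03 (95% interval -0.35 to 0.28, adjusted p = 0.91 from limma).

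KEAP1 (Entrez gene 9817), the inhibitor, was at 28.6, 31.6 and 31.8 FPKM in control cells, against 25.6, 27.8 and 15.4 FPKM with EFTUD2. All EFTUD2 libraries lay under the controls (two-sided exact permutation p = 0.1), a pattern found for 19.4% of all genes tested. The log2 fold change was -0.44 (95% interval -0.96 to 0.07, adjusted p = 0.41 from limma), and it was -0.19 without EFTUD2 replicate 3. CUL3, the scaffold of the ligase, was also lower in each EFTUD2 library (19.4, 18.3 and 15.5 FPKM, against 25.2, 23.4 and 20.6 FPKM in the controls; adjusted p = 0.40 from limma). It was the only one of the 9 regulators with an unadjusted p under 0.05, which 12.3% of all genes tested had (7.9% lower). KEAP1 and CUL3 were the 2 of the 9 whose groups did not overlap, against 27.3% of all genes.

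The small MAF proteins are partners of NRF2, and without it they repress the same elements. MAFF, with the highest log2 fold change of the regulators (0.52, adjusted p = 0.69 from limma), was at 16.5, 4.66 and 7.04 FPKM in control cells, against 7.29, 7.66 and 31.8 FPKM with EFTUD2. Control replicate 1 and EFTUD2 replicate 3 were thus the highest libraries. MAFK followed the same order, at 26.0 and 36.8 FPKM in these 2 libraries and between 11.1 and 15.2 FPKM in the other 4.

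Beyond the 9 targets and the 9 regulators, further genes of the pathway were taken from lists of glutathione, thioredoxin, NADPH, carbonyl, heme, export, superoxide and ATF4 genes. Together with the regulators these are 73 genes, of which 72 were tested. An adjusted p under 0.05 was reached by 0 of the 72 in limma, with 6 higher and 1 lower at an unadjusted p under 0.05, where all genes tested gave 4.4% higher and 7.9% lower. That balance of all genes depended on scaling: 757 were higher and 1361 lower with the values as deposited, and 1124 higher and 846 lower after scaling by the median of ratios. Groups that did not overlap were found for 10 of the 72 in the higher direction (7.92% of all genes) and for 6 in the lower direction (19.4% of all genes). The median log2 fold change of the 72 was 0.14, and 50 of the 72 were higher. The median was 0.056 without control replicate 1, 0.090 without EFTUD2 replicate 2, 0.091 without EFTUD2 replicate 3 and 0.032 without both outlying libraries, and 0.25 after scaling by the median of ratios.

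**Figure D4:**
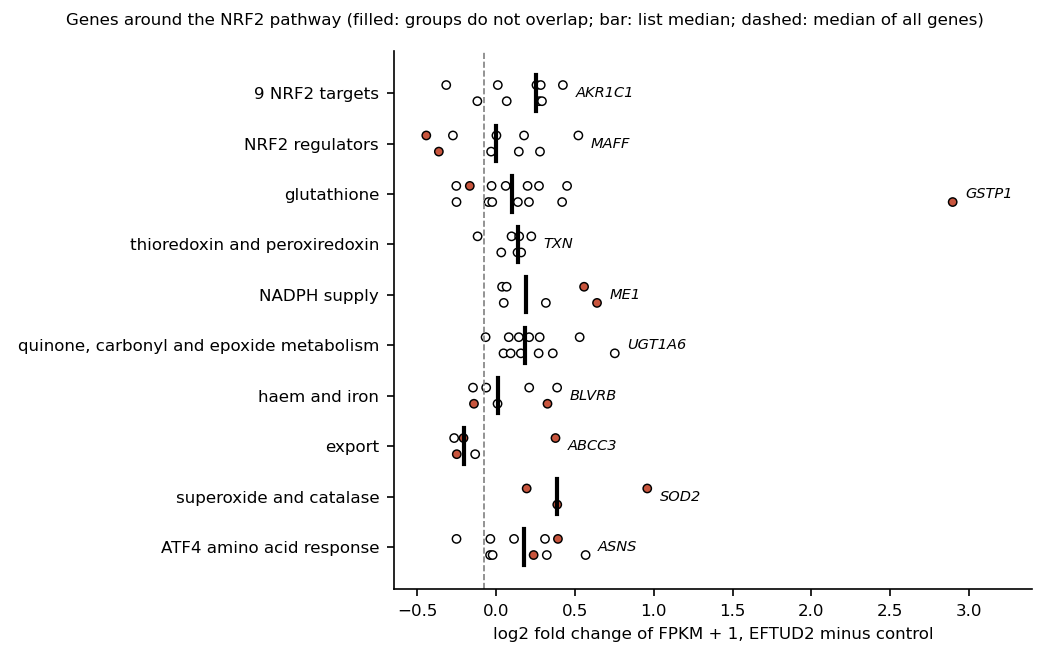
Log2 fold change of FPKM + 1, EFTUD2-overexpressing minus control (horizontal axis), of the tested genes of each list (rows; each circle 1 gene). Filled circles mark genes whose 2 groups do not overlap, black bars the list medians and the dashed line the median of all genes tested (-0.07). The 9 NRF2 targets hold no filled circle, and GSTP1 lies far to the right at 2.90.

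Among the 14 glutathione genes, GSTP1, a glutathione transferase, stood apart. GSTP1 was at 0, 0.13 and 0.05 FPKM in control cells, against 9.12, 22.3 and 1.08 FPKM with EFTUD2. Each EFTUD2 library was above each control, with very different levels between them (log2 fold change 2.90, adjusted p = 0.40 from limma, and 0.022 without EFTUD2 replicate 3). GSS, glutathione synthetase, had the lowest log2 fold change of the list (-0.25, adjusted p = 0.56 from limma). The median log2 fold change of the list was 0.10, with 8 of its 14 genes higher.

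All 6 genes of NADPH supply were higher, with a median log2 fold change of 0.19. ME1, malic enzyme, was at 0, 0.03 and 0 FPKM in control cells, against 0.62, 1.27 and 0.06 FPKM with EFTUD2. The levels of ME1 and GSTP1 in EFTUD2 replicate 3 were 0.047 and 0.048 times those in replicate 2, and that of vimentin, a mesenchymal marker, was 0.048 times. The ratio of ME1 is imprecise, as it rests on 0.06 FPKM in values rounded to 2 decimals. CBR3, of the carbonyl list and also low, was at 0.21 times, HMOX1 at 0.23 times and NQO1 at 1.03 times. TKT, transketolase of the pentose phosphate pathway, was at 143, 149.8 and 153 FPKM in control cells, against 180.4, 193 and 303 FPKM with EFTUD2 (log2 fold change 0.56, adjusted p = 0.40 from limma). PGD, the lowest of the list, had a log2 fold change of 0.04 (adjusted p = 0.88 from limma).

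Of 12 genes of quinone, carbonyl and epoxide metabolism 11 were higher, with a median log2 fold change of 0.18, from UGT1A6, a glucuronosyltransferase (0.75, adjusted p = 0.52 from limma), to NQO2 (-0.07, adjusted p = 0.90 from limma). UGT1A6 was at 23.3 FPKM in EFTUD2 replicate 3 and between 3.68 and 6.91 FPKM in the other 5 libraries. Of 7 thioredoxin and peroxiredoxin genes 6 were higher, with a median of 0.14, between TXN, thioredoxin (0.22), and TXNRD2, the mitochondrial reductase (-0.12).

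Among 7 heme and iron genes the median log2 fold change was 0.01, with BLVRB, biliverdin reductase B, highest (0.39) and HMOX2, the constitutive heme oxygenase, lowest (-0.15). Of 5 exporters 4 were lower, ABCC2 the most (-0.27, adjusted p = 0.47 from limma), while 37.3% of all genes tested were higher. The groups did not overlap for ABCC4 (-0.21) and ABCG2 (-0.25), which were lower, and for ABCC3 (0.38), which was higher (adjusted p = 0.46, 0.43 and 0.40 from limma). Over all genes tested 19.4% were lower and 7.92% higher without overlap. With quantile normalization the groups of ABCC4 and ABCG2 overlapped, as did those of ABCG2 after scaling by the median of ratios. Of the 10 ATF4 genes 6 were higher, led by ASNS, asparagine synthetase (0.57, adjusted p = 0.41 from limma), while SLC3A2, the partner of SLC7A11 in the exchanger, was the lowest (-0.25, adjusted p = 0.57 from limma).

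The superoxide and catalase list, of antioxidant enzymes that are not classical NRF2 targets, had 3 tested genes, each higher with groups that did not overlap (7.92% of all genes tested). The gap was narrow for SOD1 (highest control 216.5, lowest EFTUD2 library 219.0 FPKM) and for CAT, catalase (44.9 and 46.2 FPKM). With a common sum the groups of SOD1 overlapped. SOD2, the mitochondrial superoxide dismutase, which inflammatory signals also induce, was at 157, 151 and 163 FPKM in control cells, against 256, 295 and 380.1 FPKM with EFTUD2. All EFTUD2 libraries exceeded the controls (two-sided exact permutation p = 0.1), with a log2 fold change of 0.96 (95% interval 0.58 to 1.34) and an adjusted p of 0.25 from limma, and of 0.038 without EFTUD2 replicate 3. SOD1 was lowest in the list, at 0.19 (adjusted p = 0.49 from limma).

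The 2 members with the widest range on the log2 scale were HMOX1 and AKR1C1, and the genes with the most similar profile were sought among 12554 genes averaging 1 FPKM or more, by the root mean square difference of centred log2 values over the 6 libraries. For HMOX1 these were a transcript named only by the sequencing provider (0.12), CAPG, an actin-capping protein (0.17), and CTSE, the protease cathepsin E (0.20). CAPG was at 5.32, 12.6 and 11.1 FPKM in control cells, against 15.04, 23.2 and 6.04 FPKM with EFTUD2. Because 1 is added to FPKM, this distance understates the swings of genes with low values, such as CTSE, which ran from 0.56 to 4.59 FPKM. For AKR1C1 they were FETUB, a plasma protein of the liver (0.07) with low levels between 0.70 and 3.47 FPKM, and 2 transcripts named only by the provider (0.08 and 0.09).

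Markers of other cell types that express HMOX1 or GSTP1 were read beside these values. Of 8 macrophage markers, 5 stayed under 1 FPKM in each library, TYROBP being listed at 0 and PTPRC reaching at most 0.02 FPKM. CD14 was at 0.86, 0.60 and 1.03 FPKM in control cells, against 1.41, 2.06 and 2.51 FPKM with EFTUD2, higher without overlap, as were 7.92% of all genes tested. Its log2 fold change was 0.70 (adjusted p = 0.40 from limma, and 0.038 with array weights, where 7.23% of all genes were called). The summed level of the 8 macrophage markers was 19.1 to 31.9 FPKM in the controls and 27.7 to 36.0 FPKM in the EFTUD2 replicates, most of it CD68. Of 6 endothelial markers 5 stayed under 1 FPKM (sums of 1.09 to 1.53 and 1.29 to 1.62 FPKM). VWF (0.15 to 0.60 FPKM over the 6 libraries) and CDH5 (0.06 to 0.28 FPKM) were higher and PECAM1 lower without overlap, all at low levels. Over all genes tested 7.92% were higher and 19.4% lower without overlap. Of 8 fibroblast markers 4 stayed under 1 FPKM, with sums of 26.6 to 38.4 and 28.1 to 43.2 FPKM, most of it ACTA2. COL1A2 was listed at 0 in each library, while COL3A1 was at 0.62, 1.49 and 0.14 FPKM in the EFTUD2 replicates and at 0 in the controls. COL1A1 (0.78, 2.05 and 0.11 FPKM, at most 0.15 in the controls) and LUM (0.35, 0.56 and 0.01 FPKM, at most 0.01) had the same order of EFTUD2 libraries. ACTA2 and PDGFRB did not share it. The part of other cell types in the HMOX1, GSTP1 and ME1 values was not tested, and fewer cells of a type and less RNA per cell cannot be told apart in bulk samples.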

How the data were processed

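RNA-Seq values of 6 Hep G2 libraries (3 control, 3 EFTUD2-overexpressing) were taken from 1 table that the authors deposited as FPKM per gene, rounded to 2 decimals. The mRNA was selected by poly-A and sequenced on BGISEQ-500. The submitters' processing notes name HISAT2, Bowtie2, RSEM, DESeq2 and hg38, without versions or roles. Columns of other samples: 0. To recover relative depth, steps shared by low values were sought. The commonest ratio to control replicate 1 (bins of 0.05 on the log2 scale) held at most 4.69% of genes, so depth is unknown.

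From the FPKM, log2(FPKM + 1) was computed, genes averaging under 0.1 FPKM were left out (17222 remained), and limma 3.58.1 (lmFit, eBayes with trend) in R 4.3.3 was used with Benjamini-Hochberg adjustment over all of them. Single values were compared by exact two-sided permutation tests, whose smallest p is 0.1. The fit was tested on simulated data. The named genes are the 9 targets, NFE2L2 and KEAP1, EFTUD2, VIM, the AKR1C paralogs, the highest and lowest gene of each pathway list and those most similar to the 2 widest-ranging targets; other genes were named after their values were seen. Members and lists were chosen with earlier results of these data known. Positions are from GENCODE 29 (GRCh38), windows of 50 bases from its transcripts and promoters from RefSeq. Python 3.11.15, pandas 2.3.3, scipy 1.17.1 and matplotlib 3.10.9 were used. Alternatives were other pseudocounts, filters and scalings, robust fitting, a block for the replicate number, array weights, each library left out in turn and, added after the data were seen, both outlying libraries left out.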

Additional observations from a re-analysis of the deposited data

How the results depend on the processing

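The count of target genes with an adjusted p under 0.05 was 0 in the main fit and in each of the 18 alternatives, and SRXN1, GCLC, GCLM and KEAP1 kept their direction in all of them, with log2 fold changes between -0.43 and -0.19, -0.20 and -0.0054, 0.032 and 0.43, and -0.60 and -0.19. The count over all genes was 1246 with array weights, whose estimation stopped before it converged, and 1355 with weights estimated gene by gene, between 0 and 131 when 1 library was left out (131 without EFTUD2 replicate 3), and 1 without both control replicate 1 and EFTUD2 replicate 3. Of the 72 other pathway genes, 5 were called with either kind of array weights (GSTP1, ME1, CBR3, CHAC1 and SOD2), and between 0 and 2 when 1 library was left out. The count of targets whose groups did not overlap was between 0 and 3 when 1 library was left out and 3 without both outlying libraries. The 3 of 9 without control replicate 2 stood beside 5801 of all 17222 genes tested. The 3 of 9 without both outlying libraries stood beside 9294 of the 17222.

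The log2 fold change of NQO1 turned to -0.036 with quantile normalization, -0.022 with array weights and -0.07 without both outlying libraries, and lay between -0.082 and 0.20 when 1 library was left out. That of SLC7A11 turned to -0.028 with a common sum, and that of NFE2L2 to 0.084 with the median of ratios and 0.014 with quantile normalization. When 1 library or both outlying libraries were left out, TXNRD1 lay between -0.054 and 0.42, AKR1B10 between -0.046 and 0.49 (-0.0015 without both), AKR1C1 between -0.042 and 0.58, HMOX1 between -0.13 and 0.90, SLC7A11 between -0.081 and 0.090 and NFE2L2 between -0.16 and 0.077. The lowest values of TXNRD1, AKR1C1 and NFE2L2 were those without both libraries. The cause was not tested.

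With the replicate number as a block, limma called 0 genes, and the log2 fold change of each target was that of the main fit (HMOX1 0.28, SRXN1 -0.32). Libraries of the same number deviated from their group means with correlations over genes of -0.30, 0.35 and -0.09. Those of unlike number had correlations between -0.40 and 0.38. The check gave no sign that the numbers pair the libraries. It cannot exclude pairing, because the deviations of 3 libraries from their own mean are tied to each other. As the number of reads is unknown, no interval for counting error can be given.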
